A study of Rattus norvegicus with 48 samples.

Results

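The cytosines described here are those on rat chromosome 7 that the authors listed as differently methylated in sperm. Every row with chromosome 7 was taken from 6 deposited lists, which separate the F1, F2 and F3 generations and, within each, hypermethylated from hypomethylated cytosines. This gave 221 distinct cytosines of 3998 on all 20 chromosomes listed. Members were thus chosen by the authors' measured methylation difference, at least 20 percentage points, and a false discovery rate below 1%, per the deposited description. The same values are given here as descriptions without tests.

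Reduced representation bisulfite sequencing was applied to DNA of caudal epididymal sperm from Sprague-Dawley rats, in 48 samples. Founder females (F0) were gavaged for 5 weeks before mating, and then until they gave birth, with corn oil (control) or with an Arctic mixture of persistent organic pollutants at 500 µg per kg body weight, the treatment labelled organochlorines. The labels place 6 samples in each of 8 groups, control and organochlorines in labelled generations 1, 2, 3 and 4, and the males of F1 to F3 were killed at 90 days of age. The labels do not say how the lines were bred after the founders or whether samples share a litter.

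The deposited description assigns its lists to F1, F2 and F3. The sample labels count 4 generations instead, and the samples that cite the lists carry the numbers 2, 3 and 4, so comparisons are called here by their lists. Labelled generations 1 and 2 were sequenced on the same 2 lanes and generations 3 and 4 on 2 others, with 3 samples of each group on each of its lanes. Whether the lists stand for labelled generations 1 to 3 or 2 to 4, F1 and F3 come from different lanes, and lane and generation cannot be told apart between them. The F2 list shares lanes with F1 in the former case and with F3 in the latter. The description also does not say which group was subtracted, so hypermethylated and hypomethylated carry the lists' own sense. Each listed value is a difference between 2 groups with no replicate values beside it, and the depth behind it is unknown. A cytosine missing from a list may have missed a threshold or may not have been covered.

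In mammals DNA methylation sits mostly on cytosines followed by guanine (CpG), and both strands of a CpG usually carry the mark. Bisulfite converts unmethylated cytosines and leaves methylated ones, and the enzyme digestion of this method restricts reading to CpG-rich fragments. Marks are largely erased and rebuilt in the germ line and again after fertilization, so methylation of mature sperm is read as the state that a male can hand on. Neighbouring cytosines on 1 fragment share reads, and cytosines of 1 generation at most 1000 bp apart were therefore merged into a locus with the sign of its mean difference.

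Chromosome 7 carried fewer listed cytosines in each later list. The F1 lists held 122 cytosines on it, 73 hypermethylated and 49 hypomethylated. The F2 lists held 84, with 40 hypermethylated and 44 hypomethylated, and the F3 lists held 56, with 22 hypermethylated and 34 hypomethylated. After merging there were 90 loci in F1, 56 in F2 and 48 in F3. A locus was usually a lone cytosine, in 70 of the F1 loci, 39 of the F2 loci and 40 of the F3 loci. Plus and minus strands were listed about evenly, with 62 of 122, 45 of 84 and 30 of 56 cytosines on the plus strand.

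The lists of the other chromosomes went the other way in F3. Loci outside chromosome 7 numbered 1193 in F1, 775 in F2 and 1344 in F3. Chromosome 7 therefore held 7.01% of the F1 loci, 6.74% of the F2 loci and 3.45% of the F3 loci. It ranked joint 2 of 20 chromosomes in F1, 4 in F2 and joint 15 in F3. Its F3 list held 0.533 times as many loci as its F1 list, against 1.13 times over the other chromosomes. This was the lowest ratio among the 20 chromosomes, followed by chromosome 18 at 0.674 and chromosome 13 at 0.680. The ratio of F3 to F2 loci, 0.857, was also the lowest, and chromosome 20 came next at 1.16. Chromosome 7 was singled out with these shares known, and how many cytosines per chromosome were testable is not given in the sources used here.

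**Figure D1:**
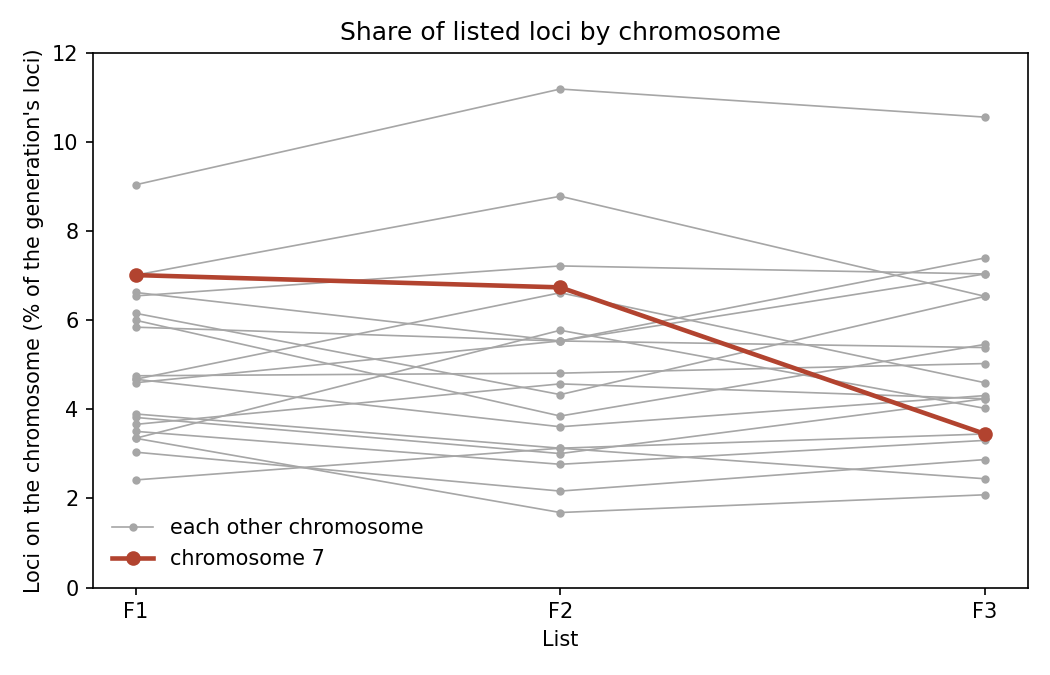
Share of each generation's listed loci (y axis, percent) that lies on each of 20 chromosomes, by list (x axis: F1, F2, F3), with 1 line per chromosome and chromosome 7 in red. Chromosome 7 stands at 7.01% and 6.74% in F1 and F2 and at 3.45% in F3.

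The balance of directions on chromosome 7 moved from hypermethylated to hypomethylated over the lists. In F1, 63 of 90 loci were hypermethylated, or 70% (95% exact Clopper-Pearson interval 59.4% to 79.2%), against 63.8% of F1 loci over all chromosomes. In F2 it was 27 of 56 loci, or 48.2% (34.7% to 62.0%), against 55.4% over all chromosomes. In F3 it was 18 of 48 loci, or 37.5% (23.95% to 52.6%), against 46.7% over all chromosomes. The intervals cover counting error only and take loci as independent, which loci close together may not be. All 3 intervals on chromosome 7 contain the share of the same list over all chromosomes, and the shares fell in the same order in both. Some F1 loci counted as hypermethylated held both signs, such as chr7:117250856-117250888 with a mean of 0.54 points. Without merging, 59.8%, 47.6% and 39.3% of the cytosines on chromosome 7 were hypermethylated (F1, F2, F3). Over all chromosomes these shares were 58.8%, 54.4% and 46.9%.

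Sizes of the listed differences were similar in the 3 lists at the median cytosine and differed at the top. The median absolute difference of cytosines on chromosome 7 was 27.1, 26.7 and 26.7 points (F1, F2, F3), against 26.0, 26.5 and 27.2 points on the other chromosomes. By locus means, the median of hypermethylated loci was 24.6, 31.9 and 25.9 points, against 24.3, 25.9 and 26.1 points elsewhere. For hypomethylated loci it was 27.3, 26.3 and 27.1 points, against 26.5, 27.4 and 25.9 points elsewhere. Differences of 40 points or more were found at 12 of 122 F1 cytosines, 22 of 84 F2 cytosines and 4 of 56 F3 cytosines. This is 26.2% of the F2 cytosines on chromosome 7 and 14.5% of those elsewhere, against 7.14% and 12.7% in F3 and 9.84% and 10.3% in F1. Of the 22 large F2 differences, 10 lay in a single block between positions 75415346 and 80519461 that is described below. The members nearest the minimum were at 20.1 points in F1 (position 123393088) and 20.3 points in F3 (position 44225102) in the authors' deposited table. No value below the minimum is listed.

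**Figure D2:**
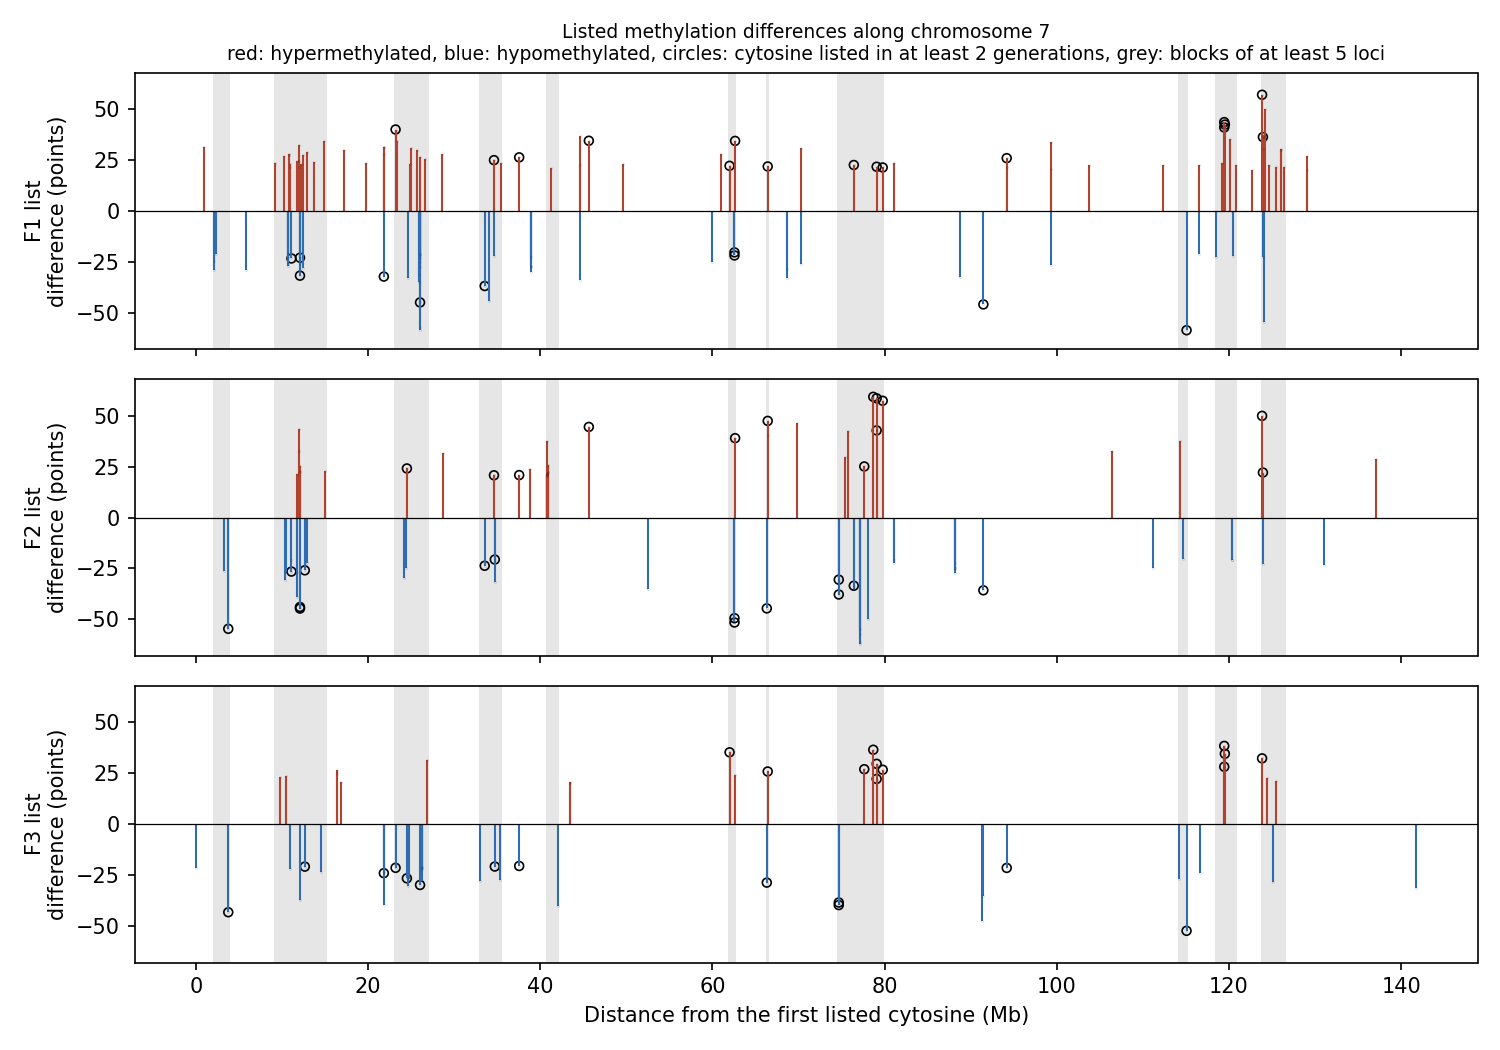
Signed methylation difference (y axis, percentage points) of each listed cytosine against its distance in Mb from the first one listed on chromosome 7 (x axis), for the F1, F2 and F3 lists from top to bottom. F1 lines crowd near both ends, many of the tallest F2 lines stand between about 60 and 80 Mb, and the F3 panel is the sparsest; circles mark the 36 cytosines listed in at least 2 generations.

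Loci were unevenly spread along the chromosome. The window from 10 to 20 Mb was among the 2 fullest in each list, and the other peaks differed between lists. The first listed cytosine lay at position 732213 and the last at 142517098. In windows of 10 Mb, F1 loci peaked at 20 between 120 and 130 Mb and at 18 between 10 and 20 Mb. F2 loci peaked at 11 between 10 and 20 Mb and at 10 between 70 and 80 Mb, where F1 had 3 loci. F3 loci peaked at 10 between 20 and 30 Mb and at 8 between 10 and 20 Mb. Between 50 and 60 Mb there was 1 F1 locus, 1 F2 locus and no F3 locus, and the longest interval without any locus, 7.46 Mb, ran from 53228152 to 60692068.

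Loci of the 3 lists were then chained into blocks wherever neighbours lay at most 1 Mb apart. A place listed in more than 1 generation counts as a locus in each, so recurrence adds loci to a block. Merged over the 3 lists, the 194 loci were 153 places. The 194 loci formed 42 blocks, of which 15 were a lone locus and 11 held at least 5 loci. These 11 blocks held 141 loci, or 72.7%, with 63 of the F1 loci, 42 of the F2 loci and 36 of the F3 loci. On the other chromosomes 69.4% of loci lay in blocks of that size. Each of the 11 blocks held loci of all 3 lists. Of the 27 blocks with at least 2 loci, 5 had only loci with a hypermethylated mean, 3 had only loci with a hypomethylated mean and 19 had both. In 1 of the 5, at chr7:70530147-71053511, an F1 locus also held a hypomethylated cytosine. Another of the 5 was a single cytosine, position 46383916, listed in F1 and F2. The share with 1 direction of locus means, 29.6%, stood beside 32.8% on the other chromosomes.

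**Figure D3:**
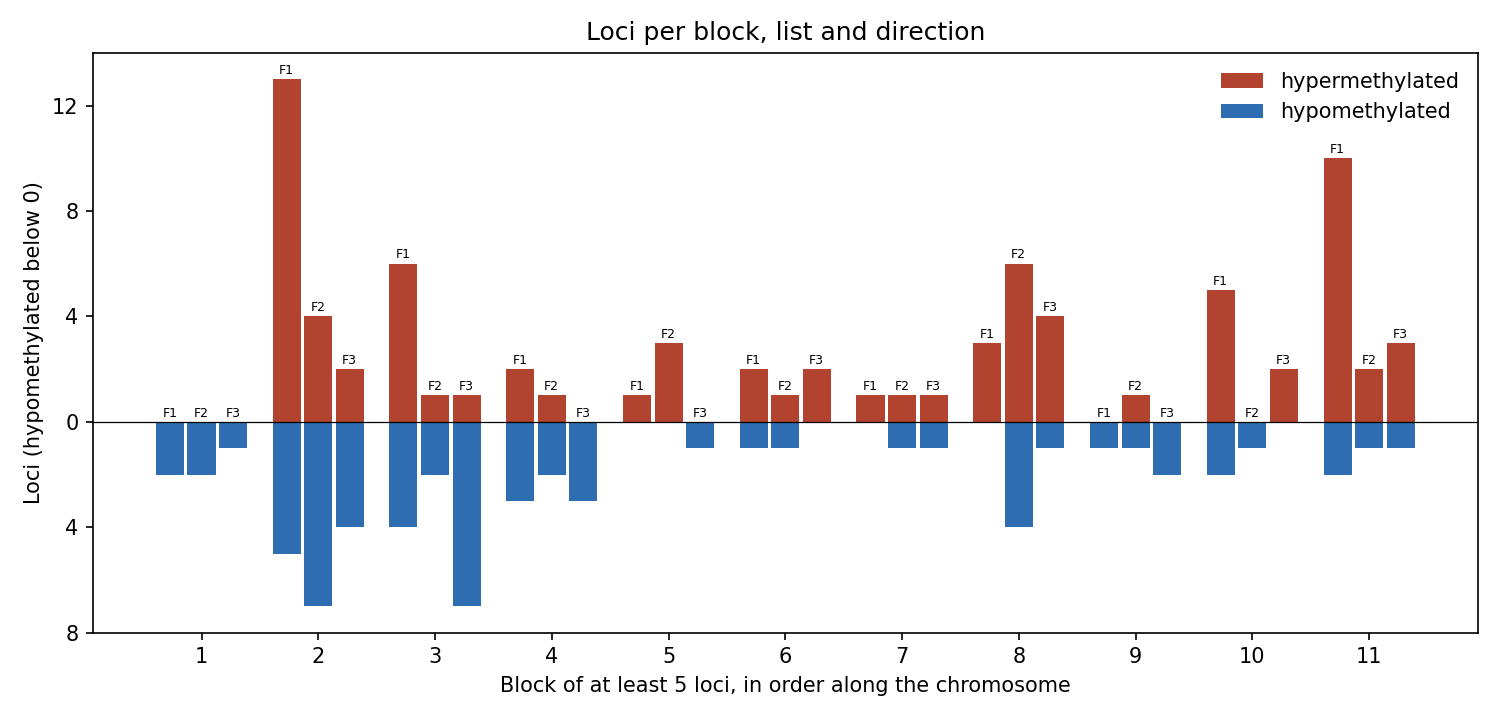
Number of loci (y axis) in each of the 11 blocks with at least 5 loci, in order along chromosome 7 (x axis), with 3 bars per block for F1, F2 and F3, hypermethylated loci above 0 and hypomethylated loci below. F1 bars are the tallest in blocks 2, 10 and 11, and F2 bars in block 8.

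The fullest block was the second of these, at chr7:9940773-15763738, with 35 loci over 5.82 Mb. Its 18 F1 loci were mostly hypermethylated, 13 against 5, whereas its 11 F2 loci were 4 hypermethylated and 7 hypomethylated, and its 6 F3 loci 2 and 4. The hypermethylated share over all chromosomes fell in the same order, from 63.8% (F1) to 55.4% (F2) and 46.7% (F3). Among the F1 loci of the block was a run of 4 hypomethylated cytosines at chr7:11481464-11481721, whose differences in the authors' deposited table averaged -24.5 points. A CpG at chr7:12830854-12830855 was hypomethylated on both strands in F1 and F2. The authors' deposited table gave its plus strand as -31.8 points (F1) and -44.7 points (F2), and its minus strand as -23.0 and -43.9 points. Downstream, at chr7:12832357-12832390, 3 F2 cytosines were hypermethylated, and they averaged 23.4 points by the authors' deposited table. Opposite directions thus lay close together in the F2 lists.

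The third block, at chr7:23936352-27615227, held 21 loci over 3.68 Mb, mixed in direction in F1 and mostly hypomethylated in F3. Its 10 F1 loci were 6 hypermethylated and 4 hypomethylated, its 3 F2 loci 1 and 2, and its 8 F3 loci 1 and 7. Over all chromosomes 63.8%, 55.4% and 46.7% of loci were hypermethylated (F1, F2, F3). The lists mostly named different cytosines in this block, where 3 recurred and 1 of them kept its sign. In F1 it contained the locus of most cytosines on the chromosome, 5 hypomethylated cytosines at chr7:26772160-26772309 that averaged -23.6 points by the authors' deposited table. Downstream, at chr7:26776946-26777270, the F1 lists held 3 hypomethylated cytosines and 1 hypermethylated one, from -58.3 to 26.3 points in the authors' deposited table. A cytosine of that locus, position 26777102, recurred, and the authors' deposited table gave it -45.0 points (F1) and -29.9 points (F3).

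Blocks 1, 4 and 5 had few loci per list. The first, at chr7:2878398-4501687, held 5 loci, all hypomethylated, among them position 4501687, which the authors' deposited table put at -54.7 points (F2) and -43.3 points (F3). The fourth, at chr7:33792345-36174735, held 11 loci, of which 8 were hypomethylated, including all 3 from F3. Position 34757143 there was among the largest F1 differences, at -44.3 points in the authors' deposited table. The fifth, at chr7:41519802-42808507, carried 3 hypermethylated F2 loci with 11 cytosines in all. Of these, 6 lay at chr7:41522056-41522191 between 20.4 and 22.0 points and 4 at chr7:41647191-41647263 between 22.2 and 25.6 points in the authors' deposited table. The only F3 locus of that block, position 42808507, was hypomethylated at -40.2 points in the authors' deposited table.

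Many of the large F2 differences lay in blocks 6 to 8, which span positions 62730032 to 80519461, and others in blocks 1, 2 and 11. The eighth block, at chr7:75415346-80519461, held 10 F2 loci, 5 F3 loci and 3 F1 loci over 5.10 Mb. The median absolute difference of its 16 F2 cytosines was 46.3 points, against 29.6 points for its 7 F3 cytosines and 21.7 points for its 3 F1 cytosines. The F2 cytosine with the largest absolute difference on the chromosome lay at chr7:77851205-77851233. This locus had 4 hypomethylated cytosines on the 2 strands of neighbouring CpGs, from -62.1 to -54.9 points in the authors' deposited table. Neither F1 nor F3 listed a cytosine there. Position 78857175, also listed in F2 alone, was at -49.8 points in the authors' deposited table. Of the 6 hypermethylated F2 loci in the block, 4 recurred, with positions 76120327 and 76508159 the exceptions.

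By the authors' deposited table, position 79421576 reached 59.3 points (F2) and 36.6 points (F3). For position 79814274 the authors' deposited table gave 21.7 points (F1), 58.6 points (F2) and 29.6 points (F3). Its partner on the minus strand, 79814275, had 42.8 points (F2) and 22.2 points (F3) by the authors' deposited table. Position 80519461, by the authors' deposited table, reached 21.3, 57.4 and 26.7 points (F1, F2, F3). At these 3 loci F2 was highest and F1, where listed, was lowest and close to the minimum. The remaining recurrent one, position 78375770, was about equal at 25.1 points (F2) and 27.0 points (F3) by the authors' deposited table.

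In the sixth block, at chr7:62730032-63373542, a CpG at chr7:63301558-63301559 was at -20.4 and -51.6 points on its plus strand and at -21.9 and -49.4 points on its minus strand, in F1 and F2 of the authors' deposited table. The seventh block, at chr7:67054404-67160977, included position 67160977, for which the authors' deposited table gave 21.8, 47.5 and 25.9 points (F1, F2, F3). Its position 67054404 had -44.6 points (F2) and -28.7 points (F3) by the authors' deposited table. Across blocks 6 to 8 together, 14 cytosines recurred. Both strands were counted separately at the CpGs chr7:63301558-63301559, chr7:75415346-75415347 and chr7:79814274-79814275. The largest absolute value of the 14 was in F2 at 10 of them, in F3 at 4 and in F1 at 0. Not all of them were listed in F1, which held 4 of 4 in the sixth block, 1 of 2 in the seventh and 3 of 8 in the eighth.

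Of the 3 distal blocks, the tenth and eleventh held more loci of F1 than of F2 or F3. The ninth, at chr7:114959271-115812970, had 1 F1 locus, 2 F2 loci and 2 F3 loci and held the largest hypomethylated value of both F1 and F3, position 115812970 with -58.6 points (F1) and -52.4 points (F3) by the authors' deposited table. The tenth block, at chr7:119220218-121509402, had 7 F1 loci, 1 F2 locus and 2 F3 loci. Both of its F3 loci were F1 loci too. The CpG at chr7:120189000-120189001 had 43.6 points (F1) and 28.2 points (F3) on the plus strand, and 41.0 and 38.5 points on the minus strand, by the authors' deposited table. Position 120260510 followed with 42.4 points (F1) and 34.6 points (F3) by the authors' deposited table.

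The eleventh block, at chr7:124583149-127176795, had 12 F1 loci, 3 F2 loci and 4 F3 loci, and 15 of the 19 were hypermethylated. By list these were 10 of 12, 2 of 3 and 3 of 4 (F1, F2, F3), beside 63.8%, 55.4% and 46.7% over all chromosomes. The block opened with position 124583149, the largest hypermethylated F1 value on the chromosome, with 57.1, 49.9 and 32.3 points (F1, F2, F3) by the authors' deposited table. Further along lay 2 F1 cytosines with large and opposite differences. Position 124816242 was at -54.5 points and position 124888281 at 50.2 points in F1 of the authors' deposited table, and neither was listed again. In blocks 9 to 11 together, 6 cytosines recurred, with both strands of the CpG at chr7:120189000-120189001 counted separately. The largest absolute value was in F1 at all 6. F2 listed 2 of these, both in the eleventh block, so it could be largest at no other. In blocks 1 to 4 together, 11 cytosines recurred, with both strands of the CpG at chr7:12830854-12830855 counted separately. The largest absolute value was in F1 at 4, in F2 at 5 and in F3 at 2. Each list could be largest only where it held the cytosine. Over blocks 1, 2, 3 and 4 in order, F1 held 0, 3, 2 and 2 of the 11. F2 held 1, 4, 1 and 3, and F3 held 1, 1, 3 and 1.

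Stretches where F1 and F2 list loci and F3 does not were read in 2 ways. By blocks, 22 of the 42 held no F3 locus, or 52.4%, against 33.5% of the 744 blocks on the other chromosomes. Chromosome 7 had the highest such share of the 20 chromosomes, and chromosomes 13 and 18 followed at 50.0% and 48.0%. Blocks without an F1 locus made up 16.7% on chromosome 7 and 32.4% elsewhere, and blocks without an F2 locus 42.9% and 52.3%. These shares move with the number of loci in each list and were not tested. The 22 blocks were small. They held 20 F1 loci and 12 F2 loci, 13 of the 22 were a lone locus, and together they spanned 2.39 Mb. The other 70 F1 loci and 44 F2 loci lay in blocks that also held an F3 locus.

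Both F1 and F2 loci were present in 6 of the 22 blocks. In 1 of them the same cytosine was listed, position 46383916 with 34.5 points (F1) and 44.5 points (F2) by the authors' deposited table. The block at chr7:29340220-29399816 had 1 hypermethylated cytosine in F1 and another in F2. At chr7:70530147-71053511, F2 listed 1 hypermethylated cytosine, whereas the F1 locus paired a hypomethylated cytosine with a hypermethylated one, at -25.9 and 30.7 points in the authors' deposited table. The block at chr7:88873112-89451497 was hypomethylated in both, with 4 F2 cytosines from -27.0 to -22.1 points in the authors' deposited table and 1 F1 cytosine. In the remaining pair of blocks F1 and F2 differed in direction. At chr7:39559567-39656155, F1 listed 4 hypomethylated cytosines that averaged -26.7 points by the authors' deposited table, and F2 listed 1 hypermethylated cytosine. At chr7:81809817-81878362, F1 was hypermethylated at 1 cytosine and F2 hypomethylated at 2.

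By distance, the 48 F3 loci left 47 intervals between neighbours, with a median of 1.31 Mb. Of these, 20 held loci of both F1 and F2, and 14 held neither. The interval with the most loci lay within the second block, between positions 11704209 and 12870243, where 6 F1 loci and 6 F2 loci stood in 1.17 Mb without an F3 locus. In the eleventh block, 6 F1 loci and 2 F2 loci stood between 124583149 and 125195611. The longest intervals were 20.0 Mb from 94922126 to 114959271 with 4 F1 loci and 2 F2 loci, 18.5 Mb from 44225102 to 62730032 with 5 and 2, and 16.3 Mb from 126171831 to 142517098 with 6 and 2. All 6 F1 loci of that last interval were hypermethylated, beside 63.8% of F1 loci over all chromosomes. Intervals of at least 5 Mb were not limited to F3: there were 7 in F3, 5 in F1 and 9 in F2, and the longest was 10.4 Mb in F1 and 14.98 Mb in F2.

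F3 loci mostly lay near F1 loci, even though many F1 loci had no F3 locus near. Of the 48 F3 loci, 43 had an F1 locus within 1 Mb, or 89.6%, against 74.0% of F3 loci on the other chromosomes. Of the 90 F1 loci, 65 had an F3 locus within 1 Mb, or 72.2%, against 73.5% elsewhere. Within 1000 bp the counts were 15 of 48 F3 loci and 15 of 90 F1 loci. The share of F1 loci with an F3 locus within 1000 bp was 16.7% on chromosome 7 and 27.2% elsewhere. The share of F3 loci with an F1 locus within that distance was 31.25% and 24.2%. All these shares move with the number of loci in each list and were not tested.

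Recurrence was counted next, as the same position and strand in more than 1 list. Of the 221 cytosines, 185 appeared in a single generation, 31 in 2 generations and 5 in all 3. The 36 recurrent cytosines, in 31 CpGs, made up 16.3% of those on chromosome 7 and stood beside 20.4% on the other chromosomes. As a share of each list, 26 of 122 F1 cytosines recurred, or 21.3%, against 34.5% of the F1 lists over all chromosomes. In F2 it was 27 of 84, or 32.1%, against 45.8%, and in F3 24 of 56, or 42.9%, against 29.8%. Cytosines listed in 1 generation alone numbered 96 in F1, 57 in F2 and 32 in F3. F1 and F2 shared 17 cytosines, which were 13.9% of the F1 and 20.2% of the F2 cytosines. F1 and F3 shared 14, or 11.5% and 25%, and F2 and F3 shared 15, or 17.9% and 26.8%. Over all chromosomes the same shares were 20.0% and 28.2% (F1 and F2), 22.1% and 19.1% (F1 and F3), and 28.3% and 17.3% (F2 and F3). Such shares move with the number of cytosines in each list. The labels give each generation its own control samples.

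Recurrent cytosines mostly kept their sign. The sign was kept at 31 of 36, of which 15 were hypermethylated and 16 hypomethylated. Between F1 and F2 it was kept at 16 of 17, beside 94.5% over all chromosomes. Between F2 and F3 it was kept at 13 of 15, beside 89.0%, and between F1 and F3 at 11 of 14, beside 76.6%. Of the 5 cytosines in all 3 lists, 4 were hypermethylated throughout, at positions 67160977, 79814274, 80519461 and 124583149. None was hypomethylated in all 3. At chr7:92210278-92210340 the 3 lists were all hypomethylated within 63 bp, but F3 listed another cytosine of that locus than F1 and F2.

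**Figure D4:**
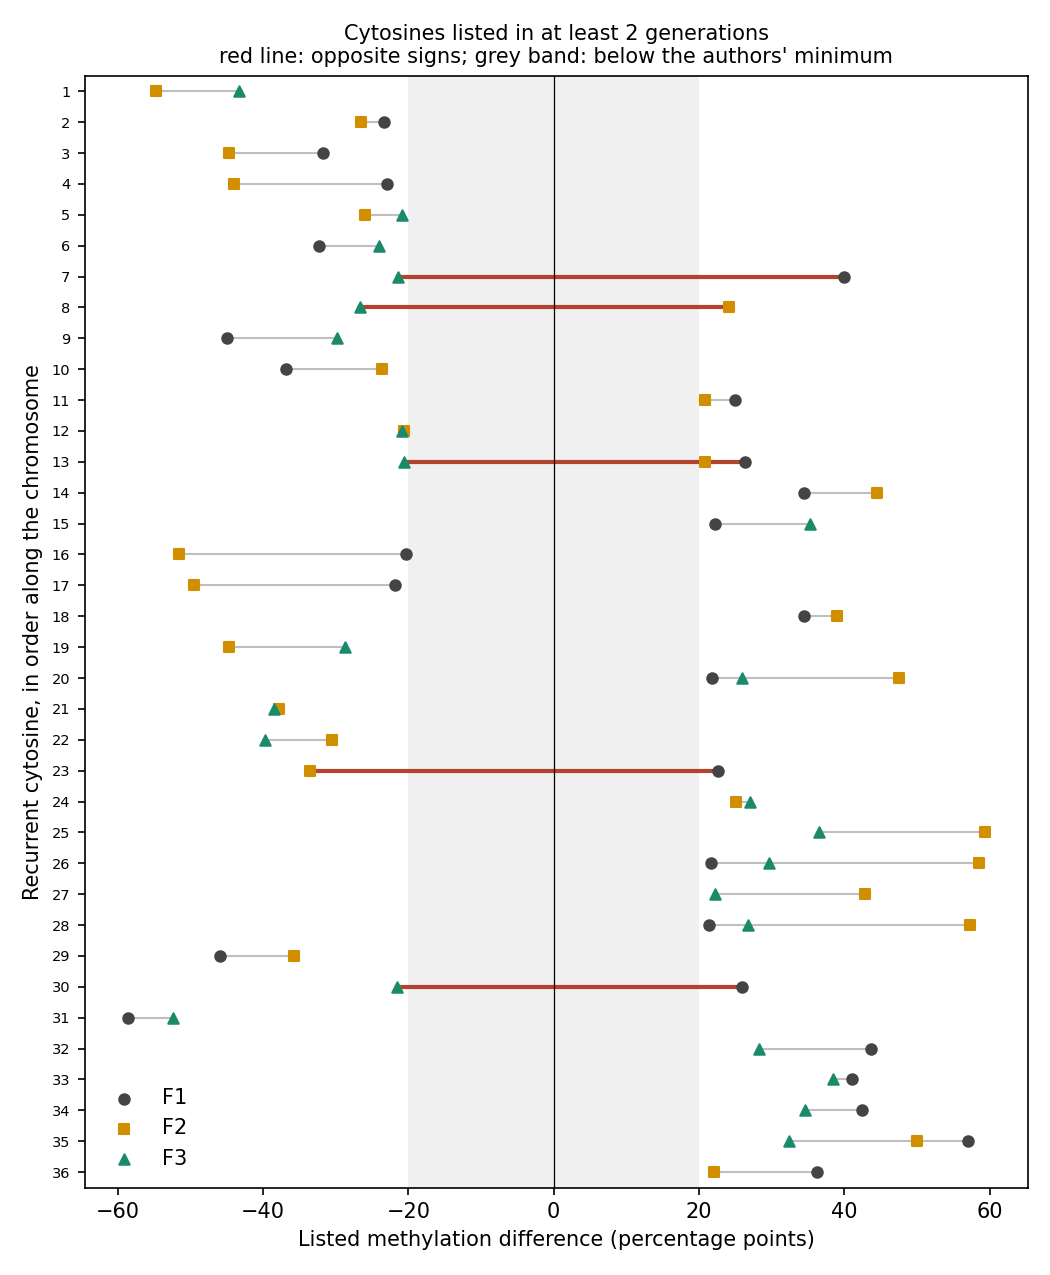
Listed difference (x axis, percentage points) of the 36 cytosines listed in at least 2 generations, 1 row each in order along chromosome 7 (y axis), with F1 as circles, F2 as squares and F3 as triangles. The 5 red lines cross 0, and each runs from a hypermethylated value in the earlier list to a hypomethylated value in the later one.

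The 5 cytosines with opposite signs all ran from hypermethylated in the earlier list to hypomethylated in the later one. For position 23936352 the authors' deposited table gave 40 points (F1) and -21.4 points (F3). Position 25251342 had 24.1 points (F2) and -26.6 points (F3), and position 94922126 had 25.9 points (F1) and -21.5 points (F3), by the authors' deposited table. Position 38292231, the fifth cytosine of all 3 lists, had 26.3, 20.8 and -20.5 points (F1, F2, F3) by the authors' deposited table. The only such change between F1 and F2 was position 77161547, at 22.6 and -33.5 points in the authors' deposited table. On the other chromosomes, 68 of 124 opposite cytosines ran in that order and 53 in the reverse order. The smaller of the opposing values lay between 20.5 and 24.1 points at all 5. A minimum of 25 points therefore removes each of the 5 from the recurrent cytosines by construction. With it, 19 cytosines recurred and all 19 kept their sign.

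Matched as loci within 1000 bp, 35 loci of chromosome 7 recurred and 8 had opposite signs. All 8 were again hypermethylated in the earlier and hypomethylated in the later list, against 77 of 145 on the other chromosomes. The 3 additional loci were chr7:13591024-13591085, chr7:81877947-81878362 and chr7:22572684-22572782. In the last of these, F1 listed 3 hypermethylated cytosines around 1 hypomethylated one, and that one, position 22572728, had -32.3 points (F1) and -24.1 points (F3) by the authors' deposited table. Its sign was therefore kept, although the sign of the locus mean was not. This order was noticed after the values were seen, and the hypermethylated share of the lists falls in the same order.

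Recurrent cytosines had larger median listed differences than those in 1 list. A recurrent cytosine had to pass the authors' minimum difference in more than 1 list. That rule by itself favours larger values among recurrent cytosines, so these medians cannot separate recurrence from the selection. The median absolute value of recurrent and single-list cytosines was 32.0 and 26.7 points in F1, 39.0 and 24.97 in F2, and 28.5 and 24.6 in F3. The same order held on the other chromosomes, at 29.5 and 24.4, 29.7 and 24.4, and 30 and 26.2 points. Of the 17 cytosines shared by F1 and F2, 11 had the larger absolute value in F2, beside 173 of 327 on the other chromosomes. The medians at those 17 were 24.9 points in F1 and 43.9 in F2, against 29.8 and 30.7 points at 327 shared cytosines elsewhere. Of the 14 shared by F1 and F3, 4 had the larger value in F3, beside 201 of 367 elsewhere. Of the 15 shared by F2 and F3, 5 did, beside 163 of 330 elsewhere. These counts were not tested.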

How the data were processed

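Sperm DNA of 48 samples was measured by reduced representation bisulfite sequencing. Build Rnor_5.0 is named per the submitters' processing notes, along with methylKit 0.9.4, Bismark 0.14.5, bedtools 2.17, SAMtools 1.2, Trim Galore 0.4.0 and CASAVA, none with a role. Each list deposited by the authors gives a cytosine's position, strand, methylation difference in percentage points, p-value and q-value. The authors kept false discovery rates below 1% and differences of at least 20 points, per the deposited description. For coverage minimum, strand treatment and model, nothing is stated. Lists hold no values of samples, so depth is unknown and no replicate spread, within-lane value or test could be had.

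Here cytosines of 1 generation at most 1000 bp apart were merged, and loci at most 1 Mb apart were chained into blocks. Intervals of shares are 95% exact Clopper-Pearson. For median differences, alternative settings were compared with a 95% interval between ranked values, set by the binomial distribution and not printed here. Merging, chaining and sign counts were tested on simulated data. The members, rules and alternatives were chosen with earlier results of these data known. Loci were named by rule: blocks of at least 5 loci, the 5 largest differences per list and direction, the 5 loci with most cytosines per generation, and loci in all 3 generations or with opposite signs. No annotation or sequence of Rnor_5.0 was used here, so no gene is named and planned gene lists were not counted. Calculations ran in pandas 2.3.3, SciPy 1.17.1 and numpy 2.4.6 under Python 3.11.15, with plots by matplotlib 3.10.9.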

Additional observations from a re-analysis of the deposited data

How the results depend on the processing

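Of 92 values recomputed under alternative settings, 75 stayed within the interval of the reported value, or within 1.5 times a reported count, and 17 did not. A minimum difference of 25 points left 70, 49 and 33 cytosines in F1, F2 and F3, with 53 loci in F1 and 30 in F3. It also left 6 blocks of at least 5 loci and 19 recurrent cytosines. Of these 19, 100% kept their sign, which was fixed because every cytosine of opposite signs had a value below 25 points. At 30 points 41, 37 and 17 cytosines were left. Chaining at 500 kb gave 66 blocks, 35 of them without an F3 locus, and chaining at 2 Mb gave 24 and 12. The percent of blocks without an F3 locus was 53.0% and 50.0% at these distances. Merging at 1 Mb raised the F3 share of loci on chromosome 7 to 4.62%, below 6.46% in F1 and 5.90% in F2. Matching loci within 1000 bp put recurrence at 22.9%. The F3 share was the lowest of the 3 without merging, with merging at 10 kb or 1 Mb, with a minimum of 25 or 30 points and with q at most 1e-05, and so was the F3 share of hypermethylated loci. No paired analysis was possible because the lists hold group differences and no samples, and for the same reason no sample could be left out. Depth is unknown, so what it limits cannot be stated.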

Other observations

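Loci that mix both signs were found on chromosome 7 in F1 alone of the 3 lists. There were 6 among the 90 F1 loci, and 0 among the 56 F2 loci and the 48 F3 loci, beside 28 of 1193, 16 of 775 and 33 of 1344 loci on the other chromosomes. Of adjacent F1 cytosines at most 100 bp apart, 22 of 28 pairs shared their sign on chromosome 7, beside 364 of 385 elsewhere. In F2 and F3 all 27 and all 7 such pairs on chromosome 7 did, beside 330 of 345 and 537 of 565 elsewhere. In F1 a CpG at chr7:45308896-45308897 had opposite signs on its strands, at 22.6 and -34.1 points in the authors' deposited table. Strands carried the same sign at the other 8 of the 9 F1 CpGs listed on both, and at all 12 such CpGs of F2 and all 5 of F3. On the other chromosomes they did at 133 of 136, 101 of 101 and 232 of 236 such CpGs (F1, F2, F3). The difference in F1 thus rests on 1 CpG. These loci were picked out after their values were seen.

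The deposited q-value was listed at 0 for 52 of 122 F1 cytosines, 45 of 84 F2 cytosines and 17 of 56 F3 cytosines on chromosome 7. Elsewhere the counts were 723 of 1599, 550 of 1135 and 718 of 1941.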
